A study of Homo sapiens with 2 samples.

Results

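The 28 genes described here belong to families of splicing and RNA-binding proteins. They were picked by name from the 836 loci that the authors listed as differing between MYB-silenced and control pancreatic cancer cells. The names were chosen with earlier results of these data known. A gene was taken if its name starts with SRSF, HNRNP, SF3, DDX, DHX, RBM, PRPF, SNRP, U2AF, LSM, CPSF, EIF or NOP, or if it is TRA2B, SFPQ or WDR43. TRA2B and SFPQ, which have the lowest ratios below, were thus named singly, so their ranks carry no weight. Antisense genes and DDX58, an RNA sensor of innate immunity, were left out. The name rule is wider than splicing, since EIF genes act in translation and NOP58 and WDR43 act in ribosome assembly.

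The cells are MiaPaCa, an established human pancreatic cancer line. The Scr control library came from cells with a scrambled hairpin plasmid, and the MYB-silenced library from cells with a plasmid expressing a hairpin against MYB. Both were stable pools selected with puromycin at 2 μg/ml, so control and silenced cells shared the plasmid backbone and the selection. The labels call the control cells MYB-overexpressing, although the protocols describe only the hairpin plasmids. Each group has 1 library, so no value below has a replicate error and no difference was tested. Values are relative to the mapped fragments of each library. Fewer cells of a kind, less RNA per cell and a shift in the other transcripts of a library cannot be told apart.

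Before a messenger RNA leaves the nucleus, its introns are cut out by the spliceosome, a machine of small nuclear ribonucleoproteins (snRNPs) that is rebuilt on each intron. SR proteins mostly bind exons and promote their inclusion, while hnRNP proteins coat the transcript and often oppose inclusion. DEAD-box (DDX) and DEAH-box (DHX) proteins are helicases and ATPases that remodel RNA and RNA-protein complexes. Several SR genes and TRA2B limit their own output through exons that send the transcript to decay. MYB itself is a transcription factor that binds DNA at a short motif built around AAC.

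The targeted gene MYB (hg19 chromosome 6, 135502453 to 135540311) stood at 981 FPKM in the control against 0.554 FPKM in the silenced cells. FPKM scales fragments to transcript length and to the mapped fragments of the library, so it can be compared between genes. The table holds only loci with an unadjusted p-value of 0.04995 or less in the authors' deposited table. With 1 library per group, these p-values cannot reflect any spread between replicates. Genes with smaller differences were not analysed here, so every ratio below is that of a selected gene. Of 24 marker genes of epithelial, fibroblast, blood, endothelial, acinar and endocrine cells, only INS was listed, within a joint locus, so cell identity could not be checked.

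All 28 members were lower in the MYB-silenced library and none was higher, against 61.7% lower among all 836 listed loci. Members included, 79.5% of the 337 listed loci at 20 FPKM or more in the control were lower. At 100 FPKM or more it was 81.25% of 64. The levels of the members in the MYB-silenced library were between 37.4% (TRA2B) and 59.9% (EIF3M) of the control level. The median log2 ratio of the members was -0.80, the same to 2 decimals as that of all listed loci (-0.80), which mix lower and higher loci. Lower listed loci outside the families had a median of -0.95. At least 2-fold lower were 6 members, TRA2B, SFPQ, NOP58, HNRNPM, CPSF1 and SRSF3, the last of which falls short with a pseudocount of 1. That is 21.4% of the members, against 25.0% of all listed loci and 41.6% of the other lower loci. The other lower loci were less abundant, with 49.4% at 20 FPKM or more in the control against 96.4% of the members. Of the 268 lower loci at that level, members included, 29.9% were at least 2-fold lower and the median was -0.90. Direction was therefore shared by every member, but the size of the difference was moderate for most of them, with 20 of 28 between -0.9 and -0.7 on the log2 scale. No lower listed locus at 20 FPKM or more in the control had a ratio above -0.71, so the listing sets the upper edge of that band. The authors' deposited table gives a p-value up to 0.01 for 5 members, HNRNPM, NOP58, SFPQ, SRSF6 and TRA2B. That is 17.9% of the members, against 32.2% of the 516 lower listed loci, or 19.9% of all 836 listed loci when counted as lower with such a p-value. The ratios are not centred: when the median of all listed loci is subtracted, 15 members stay below 0 and 13 lie slightly above it. That median is taken over genes listed for a difference and is no estimate of unchanged genes.

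The members were abundant transcripts. Their median level was 89.6 FPKM in control cells and 45.3 FPKM in silenced cells, compared with 13.9 and 11.2 FPKM for all listed loci. At 100 FPKM or more in the control were 13 of the 28, or 46.4%, against 6.31% of the other listed loci. Summed over the members, 2824 FPKM in the control stood against 1524 FPKM after silencing, or 54.0%.

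**Figure D1:**
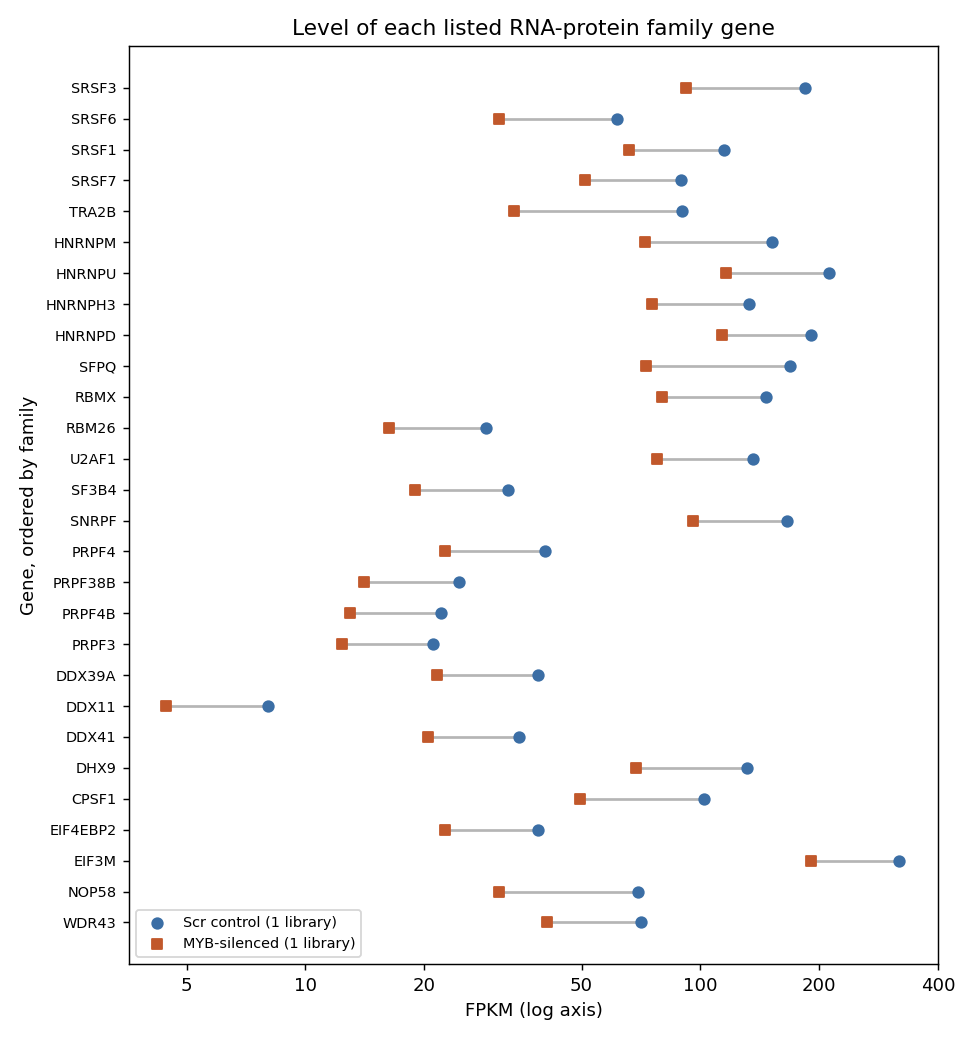
FPKM (log axis) of each of the 28 genes in the Scr control library (circles) and the MYB-silenced library (squares), with 1 library each and no error bars. Every square lies to the left of its circle, from DDX11 at 8.02 and 4.43 FPKM to EIF3M at 318 and 190.3 FPKM; centred on the median of all listed loci, 13 of the 28 ratios would turn slightly positive.

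The silenced factor reads DNA, so the sequence before the start of each member was searched on both strands for 4 MYB hexamers, those that start with TAAC or CAAC and end in GG or TG. RefSeq promoters (GRCh38.p14, from 250 bases before to 50 bases after the start) were found for 23 of the 28 members. At least 1 hexamer was present in 7 of the 23 (30.4%), in 24.7% of 15843 promoters of protein-coding genes, in 29.4% of those of other lower listed loci and in 13.2% of those of higher listed loci. The 7 were DDX39A, DDX41, EIF3M, PRPF38B, PRPF4, SRSF1 and SRSF6. Of the lowest members with a promoter, TRA2B, HNRNPM and SRSF3 had none, while SRSF6, the next lowest, had one. SFPQ, NOP58 and CPSF1, also among the lowest members, had no promoter to search. Shown here are the 250 bases before the start of 2 members without a match and 2 with one, with the hexamers in capitals. They lie at chr3:185938015-185938264 (minus strand) for TRA2B, chr19:8444725-8444974 for HNRNPM, chr20:43457646-43457895 for SRSF6 and chr1:108692060-108692309 for PRPF38B (plus strand for the last 3).
TRA2B: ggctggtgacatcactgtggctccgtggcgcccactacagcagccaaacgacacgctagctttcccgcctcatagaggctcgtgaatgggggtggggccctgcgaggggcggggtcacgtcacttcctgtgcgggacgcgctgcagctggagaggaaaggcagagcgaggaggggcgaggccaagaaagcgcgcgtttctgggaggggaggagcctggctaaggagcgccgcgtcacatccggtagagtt
HNRNPM: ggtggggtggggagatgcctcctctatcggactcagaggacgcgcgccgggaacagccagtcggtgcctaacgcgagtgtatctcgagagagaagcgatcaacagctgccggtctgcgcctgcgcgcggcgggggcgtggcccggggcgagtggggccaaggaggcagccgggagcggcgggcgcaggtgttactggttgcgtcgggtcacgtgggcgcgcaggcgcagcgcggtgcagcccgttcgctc
SRSF6: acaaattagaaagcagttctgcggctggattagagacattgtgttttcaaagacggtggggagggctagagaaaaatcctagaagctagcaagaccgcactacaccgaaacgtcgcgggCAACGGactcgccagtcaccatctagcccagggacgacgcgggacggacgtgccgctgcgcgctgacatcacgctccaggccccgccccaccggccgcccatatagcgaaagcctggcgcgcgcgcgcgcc
PRPF38B: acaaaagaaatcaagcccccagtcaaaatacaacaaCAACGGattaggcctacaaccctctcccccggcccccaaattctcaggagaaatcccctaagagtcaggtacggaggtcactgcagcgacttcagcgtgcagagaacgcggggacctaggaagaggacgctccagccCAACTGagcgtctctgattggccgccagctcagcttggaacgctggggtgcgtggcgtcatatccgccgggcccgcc

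SRSF6 held CAACGG 131 bases before the start. PRPF38B, a pre-mRNA splicing factor, held CAACGG and CAACTG before the start and a further CAACTG 17 bases after it, the most of any member. These are matches of letters and no measured binding. All motifs were searched on both strands, and none contains another. Among other motifs, the CCAAT box (CCAAT) was in 10 of 23 member promoters (43.5%). It was in 36.4% of all promoters, 43.8% of those of other lower and 37.0% of those of higher listed loci. The MYC-type E-box CACGTG was in 4 (17.4% against 8.88% of all, 10.7% of other lower and 13.2% of higher listed loci): HNRNPD, HNRNPH3, HNRNPM and WDR43. The ETS motif CCGGAAG was also in 4 (17.4% against 14.2% of all, 16.9% of other lower and 6.85% of higher listed loci). TATAAA was in 4 as well (17.4% against 9.63% of all, 8.47% of other lower and 7.31% of higher listed loci). The windows had a median of 27 CG dinucleotides per 300 bases, against 22 over all promoters and 26 both in other lower and in higher listed loci. None of the 23 had fewer than 17. Median GC content of the windows was 62.3% for members, 62.7% over all promoters, 64.3% in other lower and 69.0% in higher listed loci. The part of promoter GC content in the motif shares was not tested.

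Of the SR proteins and their relative TRA2B, all 5 listed genes were lower, with TRA2B the lowest of all members. TRA2B (chromosome 3, 185632358 to 185655924, in hg19 like all loci below), which binds GAA-rich exon elements and promotes exon inclusion, measured 90.1 FPKM in control cells against 33.7 FPKM in silenced cells (log2 ratio -1.41). The authors' deposited table gives it the smallest p-value among the members, 0.0001. SRSF3 (chromosome 6, 36562082 to 36572244), the smallest of the classical SR proteins and a link to mRNA export, was at 184 and 91.7 FPKM (-1.00). SRSF6, a regulator of alternative exons, was at 61.4 and 30.8 FPKM (-0.98). In the MYB-silenced library TRA2B stood at 37.4%, SRSF3 at 49.8% and SRSF6 at 50.2% of the control level.

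SRSF1, the founding SR protein and a known oncoprotein, was at 115 and 66.0 FPKM (log2 ratio -0.80). SRSF7, a zinc-knuckle SR protein that shares export functions with SRSF3, was at 89.1 and 51.1 FPKM (-0.80). Both lay close to the median of all listed loci, so their sign turns when ratios are centred. The 4 SRSF genes together went from 449 to 239.7 FPKM, or 53.3%. RefSeq names 12 SRSF genes, and the other 8 were not among the listed loci.

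All 4 listed hnRNP genes were lower, and they include HNRNPU and HNRNPD, which only EIF3M exceeded in level. HNRNPM (chromosome 19, 8509796 to 8554002), which regulates splicing in the switch between epithelial and mesenchymal states, measured 152 FPKM in control cells against 72.5 FPKM in silenced cells (log2 ratio -1.06). HNRNPU, a scaffold protein that ties RNA to chromatin, was at 212 and 116 FPKM (-0.86). HNRNPH3, a member of the G-rich-sequence-binding H and F group, was at 133 and 75.6 FPKM (-0.81). The locus of HNRNPH3 spans 60537 bases in the table, and its RefSeq neighbours PBLD and RUFY2 overlap the gene, so its value may hold their reads.

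HNRNPD, known as AUF1, binds AU-rich elements and steers mRNA decay. It was at 191 and 113.6 FPKM (log2 ratio -0.75), the shallowest of the 4, and its sign turns with centring. The summed level of the 4 hnRNP genes went from 687 to 378 FPKM, or 55.0%, close to the share of the SRSF genes. HnRNP and SR proteins often act against each other on the same exons, and both kinds were lower here by about the same share. No lower listed locus at 20 FPKM or more in the control exceeded 60.7% of its control level. The listing itself therefore bounds these shares, and their likeness was not tested.

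SFPQ (chromosome 1, 35641994 to 35658769), a paraspeckle protein with roles in splicing and transcription, had the second lowest ratio. It measured 169 FPKM in control cells against 72.8 FPKM in silenced cells (log2 ratio -1.21), and the authors' deposited table gives it a p-value of 0.00195. Its partner PSPC1, which is no member, was at 28.8 and 14.2 FPKM (-1.00). RBMX, also called hnRNP G, a partner of TRA2B in exon choice, was at 147 and 79.8 FPKM (-0.87). RBM26, a protein of the nuclear RNA surveillance machinery, was at 28.7 and 16.3 FPKM (-0.80).

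The core spliceosome genes U2AF1, SF3B4 and SNRPF had ratios near the median of the members (-0.80), as had SRSF1 and SRSF7. U2AF1, which reads the AG at the end of introns and is mutated in myeloid neoplasms, measured 136 FPKM in control cells against 77.7 FPKM in silenced cells (log2 ratio -0.80). SF3B4, a subunit of the U2 snRNP that helps to hold the branch site, was at 32.7 and 19.0 FPKM (-0.77). SNRPF, part of the Sm ring around spliceosomal RNAs, was at 166 and 95.7 FPKM (-0.79). The ratios of SF3B4 and SNRPF turn slightly positive when centred, and that of U2AF1 is then -0.0035.

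The 4 PRPF genes had a median log2 ratio of -0.76, which turns to 0.04 when centred. PRPF4 and PRPF3 are partners in the U4/U6 snRNP. PRPF4 measured 40.5 FPKM in control cells against 22.6 FPKM in silenced cells (-0.83). PRPF3 was at 21.1 and 12.4 FPKM (-0.74). PRPF4 stood at 55.8% and PRPF3 at 58.9% of the control level. No lower listed locus at 20 FPKM or more in the control exceeded 60.7%, so this likeness is bounded by the listing.

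PRPF4B, a kinase of the spliceosome, was at 22.0 and 13.0 FPKM (log2 ratio -0.74). PRPF38B was at 24.4 and 14.1 FPKM (-0.78). All 4 PRPF genes lay between 21.1 and 40.5 FPKM in the control, under every SRSF and HNRNP member. Of the 15 RefSeq genes whose names start with LSM, none was listed. The products of only some of them form rings around U6 RNA and around decaying mRNA.

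Of the helicases, 4 were listed and lower. DHX9, a helicase that unwinds RNA and DNA duplexes, measured 131 FPKM in control cells against 68.5 FPKM in silenced cells (log2 ratio -0.93). DDX39A, which is close to the mRNA export helicase DDX39B, was at 38.9 and 21.6 FPKM (-0.84). DDX41, a spliceosome-associated helicase mutated in inherited myeloid disease, was at 34.8 and 20.5 FPKM (-0.75). DDX11, whose main role is in DNA replication and sister chromatid cohesion, was at 8.02 and 4.43 FPKM (-0.79), the only member under 20 FPKM in the control. The ratios of DDX11 and DDX41 turn with centring, as does the median of the 3 DDX genes (-0.79, or 0.01 centred).

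CPSF1 (chromosome 8, 145597731 to 145634733), the largest subunit of the complex that recognises the polyadenylation signal, was at 102 and 49.6 FPKM (log2 ratio -1.03). The authors' deposited table gives it a p-value of 0.0421, the highest among the 6 members at least 2-fold lower. It was also the member with the highest transcript GC content, 62.8%. Further CPSF genes were not listed.

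Both listed translation genes were lower, and EIF3M had the ratio nearest to 0 of all members. EIF3M, a subunit of the initiation factor that prepares the small ribosomal subunit, was the most abundant member. It measured 318 FPKM in control cells against 190.3 FPKM in silenced cells (log2 ratio -0.74) over a locus of 210875 bases. Its RefSeq neighbour CCDC73 overlaps the gene, so its value may hold reads of both. EIF4EBP2, a repressor of cap-dependent initiation that mTOR inactivates, was at 38.9 and 22.6 FPKM (-0.77). An activator and a repressor of initiation were thus both lower, and both turn slightly positive when centred. RefSeq names 56 EIF genes, of which these 2 (3.57%) were listed.

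The ribosome assembly factors differed from each other. NOP58 (chromosome 2, 203130403 to 203168384), a core protein of the box C/D snoRNPs that guide ribosomal RNA methylation, was at 69.6 and 30.9 FPKM (log2 ratio -1.16). Its p-value is 0.00145 by the authors' deposited table. WDR43, a subunit of the complex that starts small-subunit assembly, was at 70.6 and 41.0 FPKM (-0.78), a ratio that turns positive (0.02) when centred. Both had nearly the same control level, and NOP58 was left at 44.4% and WDR43 at 58.0% of it. Both genes have snoRNA genes inside them, and with HNRNPU and RBMX they make 4 members with 9 such RefSeq genes in all. No other listed locus overlapped a member locus, so none of these snoRNAs had a value of its own. Of 12 listed SNORD loci, the class bound by NOP58, 5 were lower and 7 higher, and 9 were at 0 in either library, which makes their values uncertain.

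**Figure D2:**
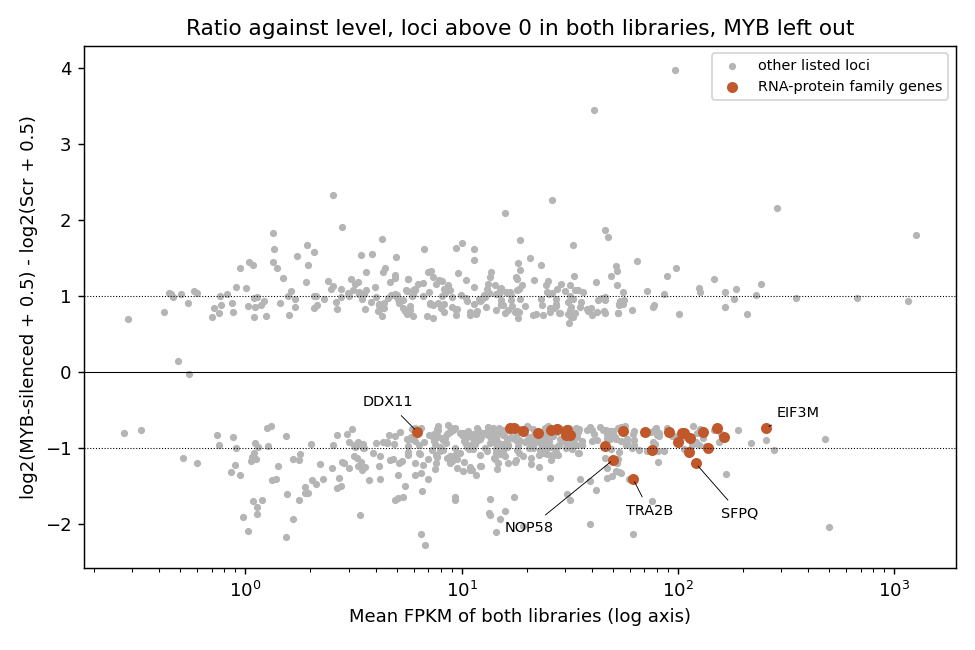
log2 ratio (MYB-silenced against Scr control, pseudocount 0.5) against the mean FPKM of both libraries (log axis) for listed loci above 0 in both, with MYB left out; dotted lines mark 2-fold. The 28 genes (orange) all lie below 0, mostly in the upper band of the lower loci and at high levels, while TRA2B, SFPQ and NOP58 lie farthest down; 13 of them would lie just above 0 after centring.

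How often a family was listed varied. Of 272 genes with these names in RefSeq, 28 (10.3%) were listed, against 800 of 20056 protein-coding genes (3.99%). The 10.3% includes TRA2B, SFPQ and WDR43 at 1 of 1 each, which naming them singly with earlier results known had fixed in advance. The share was 33.3% for SRSF (4 of 12), 30.8% for PRPF (4 of 13) and 15.4% for HNRNP (4 of 26). It was 7.89% for DDX (3 of 38) and 3.77% for RBM (2 of 53). Unlisted genes include silent ones and those that missed the p-value, so these shares describe the table only and were not tested.

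Across the 28 genes, which share both libraries, Spearman's rho between the log2 ratio and the control level was -0.33, with transcript length 0.12 and with transcript GC content -0.12, all weak. The control level is itself part of the ratio, and the genes were listed by a p-value on the same difference. These values therefore only describe the listed genes. Members lay on 17 chromosomes, with 6 on chromosome 1 and 3 on chromosome 2. Where the mean of both libraries reached 20 FPKM, all 24 members and 65.9% of the other 302 loci were lower.

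Direction in the table moved with GC content, and the members lie largely where other loci were lower too. Their median transcript GC content was 44.4%, near that of all lower listed loci (44.6%) and far from the 60.4% of higher ones. In 5 bins of GC content, the lowest 2 bins held 17 of the 28 members, and 92.0% and 86.3% of the other loci there were lower. The middle bin held 7 members, and 68.0% of its other loci were lower. The fourth held DDX11, DDX39A and DDX41, with 49.0% of the others lower, and the highest held CPSF1, with 10.9% of the others lower. The part of GC content in the ratios was not tested.

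**Figure D3:**
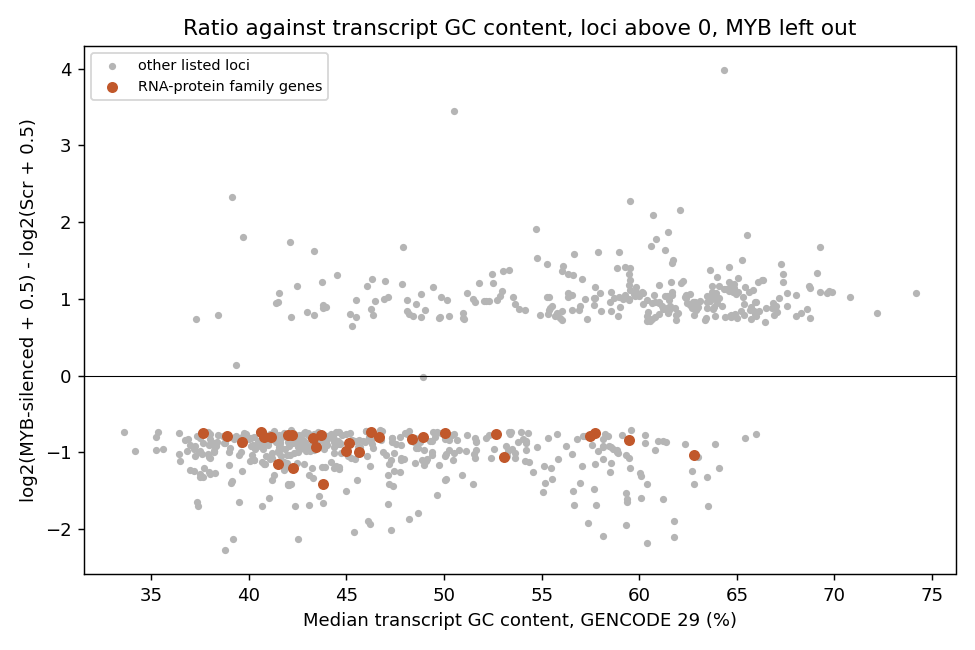
log2 ratio (MYB-silenced against Scr control, pseudocount 0.5) against the median GC content of a gene's GENCODE 29 transcripts for listed loci above 0 in both libraries, with MYB left out. Higher loci gather at high GC content and lower loci at low GC content; the 28 genes (orange) lie mostly with the latter, with CPSF1 at 62.8% as the member farthest to the right, and 13 of them would lie just above 0 after centring.

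Gene copies and overlapping genes limit single values. U2AF1, RBMX and DDX11 have closely similar copies or pseudogenes, so their values are uncertain by an amount that cannot be given. By RefSeq positions, 7 members overlap a gene other than a snoRNA or miRNA, among them CPSF1 with ADCK5 and DHX9 with DHX9-AS1, and without strand their reads cannot be told apart.

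Other genes of RNA metabolism, taken from 6 lists with no member in them, were mostly lower as well. Of their 290 gene names, 25 (8.62%) were listed, against 3.99% of protein-coding genes. The list totals here and below count some genes under an old and a new name, while the protein-coding share merges such names. Of the 25, 24 (96.0%) were lower and 1 was higher, against 61.7% lower among all listed loci. By list, their median transcript GC content was between 40.8% and 47.7%, within the lowest 3 bins, where 68.0% to 92.0% of loci other than members were lower. Among 60 splicing cofactors and kinases, 4 were listed and all were lower. BCLAF1, an SR-like nuclear protein, measured 73.1 FPKM in control cells against 31.5 FPKM in silenced cells (log2 ratio -1.20). TRA2A, the paralogue of TRA2B, was at 65.8 and 32.4 FPKM (-1.01). LUC7L3 of the U1 snRNP periphery was at 44.3 and 24.2 FPKM (-0.86), and PNN, an SR-related protein of the exon junction, at 60.3 and 33.7 FPKM (-0.83).

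Among 53 other mRNA-binding proteins, 8 were listed, 7 lower and 1 higher. SAFB2 was at 14.6 and 6.99 FPKM (log2 ratio -1.02), and SYNCRIP, an hnRNP-like protein, at 153 and 78.4 FPKM (-0.96). DROSHA, which cuts microRNA precursors, was at 21.4 and 10.9 FPKM (-0.93). MSI1, a neural stem-cell RNA-binding protein, was the exception, at 2.74 and 5.52 FPKM (0.89). TARDBP and PCF11 are named because their sign turns with centring, after their values were seen.

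For 3-prime end processing, export and decay, 6 of 59 genes were listed and lower, of which NXF1, ALYREF and PCF11 turn slightly positive when centred. UPF3B, a factor of nonsense-mediated decay, was lowest at 22.9 and 9.72 FPKM (log2 ratio -1.20). Its partner UPF2 was at 13.4 and 7.47 FPKM (-0.80), the exosome subunit EXOSC2 at 33.3 and 18.2 FPKM (-0.85), and the export receptor NXF1 at 31.5 and 18.3 FPKM (-0.77). The export adaptor ALYREF was at 158 and 93.4 FPKM (-0.76).

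Of 67 ribosome biogenesis genes, 5 were listed and lower, from LYAR (30.2 and 15.6 FPKM, log2 ratio -0.93) to BMS1 (23.1 and 13.0 FPKM, -0.81). Between them lay NOL11 (-0.89), NOL9 (-0.86) and MKI67IP (-0.81). Of 35 genes for elongation, poly(A) binding and tRNA charging, the 2 listed were lower, the aspartyl-tRNA synthetase DARS (-0.83) and the release factor GSPT1 (-0.78, just above 0 when centred). None of 16 snoRNA host genes was listed.

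**Figure D4:**
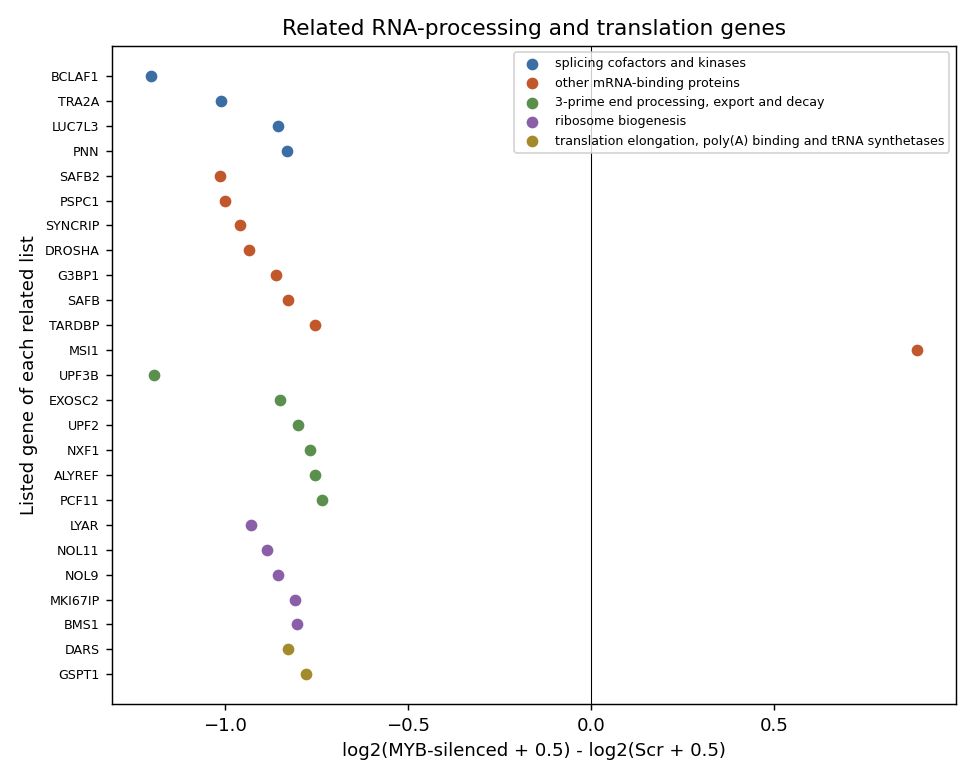
log2 ratio (MYB-silenced against Scr control, pseudocount 0.5) of the 25 listed genes from the lists of other RNA-processing and translation genes, coloured by list. The lists hold 24 genes below 0, with BCLAF1 at -1.20 the lowest, and MSI1 at 0.89 is the only one above 0; after centring, TARDBP, NXF1, ALYREF, PCF11 and GSPT1 would lie just above 0.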

How the data were processed

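RNA of 2 libraries of MiaPaCa cells was sequenced by the authors, 1 per group, and per the submitters' processing notes hg19 was the build and CASAVA 1.8.2, TopHat, Cufflinks and Bowtie the tools, with no roles or parameters. The deposited table holds FPKM values made by the authors (fragments scaled by transcript length and mapped fragments). Beside them the authors deposited an unadjusted p-value, a signed fold change and its log2 form with no pseudocount. It lists 836 loci with a p-value of 0.04995 or less; 13689 blank rows were left out. Annotation, scaling between libraries, strand and treatment of reads shared by gene copies remain unstated in the labels and headers, and depth is unknown.

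Members were found by gene name prefix or, for TRA2B, SFPQ and WDR43, by full name. Ratios are log2(MYB-silenced + 0.5) minus log2(Scr + 0.5), computed with Python 3.11.15 and pandas 2.3.3, and counts and medians were checked on simulated data. With 1 library per group no test was run. All 28 members are named, as are MYB and up to 5 listed genes of each related list by absolute log2 ratio, plus TARDBP and PCF11 for their sign; 1 gene is not reported here; the 4 promoters shown were chosen after their matches were known. Transcript GC content is a median over the GENCODE release 29 transcripts of each gene, found by its symbol or an earlier one for 783 loci. Coordinates of loci are those of the table with the start raised by 1. The members and lists were chosen with earlier results of these data known. Alternatives were other pseudocounts, centring on the median ratio, level filters, other folds and a p-value limit.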

Additional observations from a re-analysis of the deposited data

How the results depend on the processing

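No paired analysis was possible because each group has 1 library, so no library could be left out either. Only centring on the median ratio of all listed loci (-0.80) turned directions, which it does by construction for loci near that median. It left 15 members lower and 13 higher, none at least 2-fold lower (0), and a member median of -0.0027. The family medians became -0.091 for SRSF, -0.038 for HNRNP, 0.0088 for DDX and 0.038 for PRPF. The members above 0 were DDX11 (0.0088), DDX41 (0.048), EIF3M (0.059), EIF4EBP2 (0.025), HNRNPD (0.052), PRPF3 (0.056), PRPF38B (0.022), PRPF4B (0.055), SF3B4 (0.030), SNRPF (0.0093), SRSF1 (0.0019), SRSF7 (0.0025) and WDR43 (0.019). Among other named genes they were TARDBP (0.043), NXF1 (0.028), ALYREF (0.042), PCF11 (0.061), GSPT1 (0.017), PHAX (0.069), NCBP1 (0.0088), CCAR1 (0.063) and MALAT1 (0.0029). The 28 lower members became 5 at a p-value up to 0.01 in the authors' deposited table (HNRNPM, NOP58, SFPQ, SRSF6 and TRA2B), which 19.9% of all listed loci reached while lower. The 6 members at least 2-fold lower became 28 at 1.5-fold and 0 at 3-fold, and 5 with a pseudocount of 1, without SRSF3. Every listed locus with a mean of 20 FPKM or more had an absolute log2 ratio of at least 0.643, which already passes 1.5-fold. Shares of all listed loci at 1.5-fold and 3-fold were not computed. Pseudocounts of 0.1 and 1 moved no member's ratio by more than 0.057 and turned none of the 39 other genes recomputed (MYB, the related genes and those named after their values were seen). Filters at a mean of 1 and 5 FPKM left the 28 lower members and their median as they were. Joint locus names left that count, and dropping extra contigs left that median. At a mean of 20 FPKM, a limit chosen after seeing the data, 24 members were lower and 0 higher, with a median of -0.82.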

Other observations

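Further listed genes around the spliceosome, named after their values were seen, lay in the same range, which holds for the 11 given here and was not tested. Because they were picked with their values known, the counts of lower genes among them carry no weight. Of 5 genes for the capping, export and assembly of small nuclear RNAs, all 5 were lower, against 61.7% of all listed loci. The cap-binding subunit NCBP1 stood at 35.1 FPKM in the control against 20.1 FPKM in the silenced cells (log2 ratio -0.79), and the cap-bound adaptor SRRT at 34.1 and 17.0 FPKM (-0.98). PHAX, which exports small nuclear RNAs, was at 25.3 and 15.1 FPKM (-0.73), and TGS1, which methylates their caps, at 17.9 and 9.09 FPKM (-0.94). The Sm protein chaperone CLNS1A was at 102 and 58.0 FPKM (-0.81). Of 6 others, all 6 were lower, from ZNF326 (-0.98) and SLTM (-0.93) over the exon junction protein MAGOHB (-0.91), NSRP1 (-0.90) and CWF19L1 (-0.85) to CCAR1 (-0.73). PHAX, NCBP1 and CCAR1 turn slightly positive when centred. Apart from SRRT (57.9%), the 11 genes had a transcript GC content between 37.5% and 45.2%. That is within the lowest 2 bins, where 92.0% and 86.3% of loci other than members were lower.

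The nuclear long non-coding RNAs NEAT1 and MALAT1, also named after their values were seen, had ratios of opposite sign. NEAT1, the scaffold of paraspeckles, measured 56.7 FPKM in control cells against 115.7 FPKM in silenced cells (log2 ratio 1.02), while the paraspeckle proteins SFPQ (-1.21) and PSPC1 (-1.00) were lower. MALAT1, which gathers in nuclear speckles, was at 43.8 and 25.0 FPKM (-0.79, or 0.0029 when centred). NEAT1 had a median transcript GC content of 47.1%, SFPQ of 42.2%, PSPC1 of 46.9% and MALAT1 of 39.3%.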
